A study of Mus musculus with 8 samples.

Results

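The genes described here were the chemokine ligands measured in whole lungs of mice with an activated K-ras allele. They were chosen by name and biotype, as the protein-coding genes whose symbols begin with Ccl, Cxcl, Xcl or Cx3cl followed by a digit. This gave 44 rows with 38 distinct symbols among the 54532 genes of the count table, because 7 of the rows are copies on scaffolds. Of these, 32 had at least 10 counts in 4 or more of the 8 libraries and are reported, 31 of which also passed the expression filter and were among the 17138 genes tested. The other 12 rows had too few counts and are accounted for at the end.

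RNA was sequenced from the lungs of 8 mice, 4 in the Control group and 4 in the TTI-101 group. Both groups carried the CC-LR genotype, in which Cre driven from the club cell secretory protein locus switches on an LSL-K-rasG12D allele on a C57BL/6 background, so that mutant K-ras is made in the lung epithelium and tumors form spontaneously. TTI-101 is a small-molecule inhibitor of STAT3 and was given from 10 to 14 weeks of age, when lungs were taken; the labels give neither the route nor the sex of these 8 mice. There was no K-ras wild-type group, so the comparison is between treated and Control lungs of this one genotype, and each library is taken as a separate mouse.

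Chemokines are small secreted proteins that bind receptors on leukocytes and direct their movement along gradients. Most fall into the CC and CXC families, named for the spacing of conserved cysteines, and single receptors often answer to several ligands. In the lung, airway and alveolar epithelium, macrophages, dendritic cells, fibroblasts and vessels each make their own sets, and many of the inflammatory ligands are known targets of NF-κB, interferon or STAT signaling.

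Between 16075855 and 26873509 counts were assigned to genes per library. The reported ligands together took 0.316% to 0.712% of them. No gene of the 17138 passed an adjusted p of 0.05 in edgeR's quasi-likelihood test, and 1132 had an unadjusted p under 0.05, 518 of them higher and 614 lower with TTI-101. Transcripts of Stat3 itself, whose protein the drug targets, were at 257 ± 30.0 CPM (counts scaled to the size of the library; SD, n = 4) in Control lungs and 244 ± 26.8 CPM (SD, n = 4) in TTI-101 lungs. On the first principal component, which held 45.17% of the variance, control mouse 4 lay at 101.1 while the other mice lay between -39.35 and 17.92, and for ligands in which it was the highest or lowest, several values are also given without it.

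None of the 31 ligands tested passed an adjusted p of 0.05, beside 0% of all genes tested, and the lowest adjusted p among them was 0.657. At an unadjusted p under 0.05 there were 2 ligands, Ccl12 and Cxcl9, both lower in TTI-101 lungs, and 0 that were higher; over all genes tested 6.61% reached this level, so that 2 of 31 was close to the background. DESeq2's Wald test was run without the expression filter, on the 31830 genes with at least 1 count. It placed 4 ligands under an unadjusted p of 0.05 (Ccl8, Ccl12, Cxcl3 and Cxcl9) and 0 under an adjusted p of 0.05. Of its genes 5.31% were under the unadjusted level. On the same 31830 genes, edgeR placed 2 ligands (Ccl8 and Ccl12) and 1849 genes under that level. In the filtered edgeR fit, the log2 fold change was negative for 20 ligands and positive for 11, with a median of -0.21 beside 0.003 over all genes. With 1 mouse left out this median ran from -0.36 (without TTI-101 mouse 2) to -0.10 (without TTI-101 mouse 1), and it was -0.097 in limma-voom. For 17 ligands the standard error was larger than the fold change itself, and the median standard error was 0.41.

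**Figure D1:**
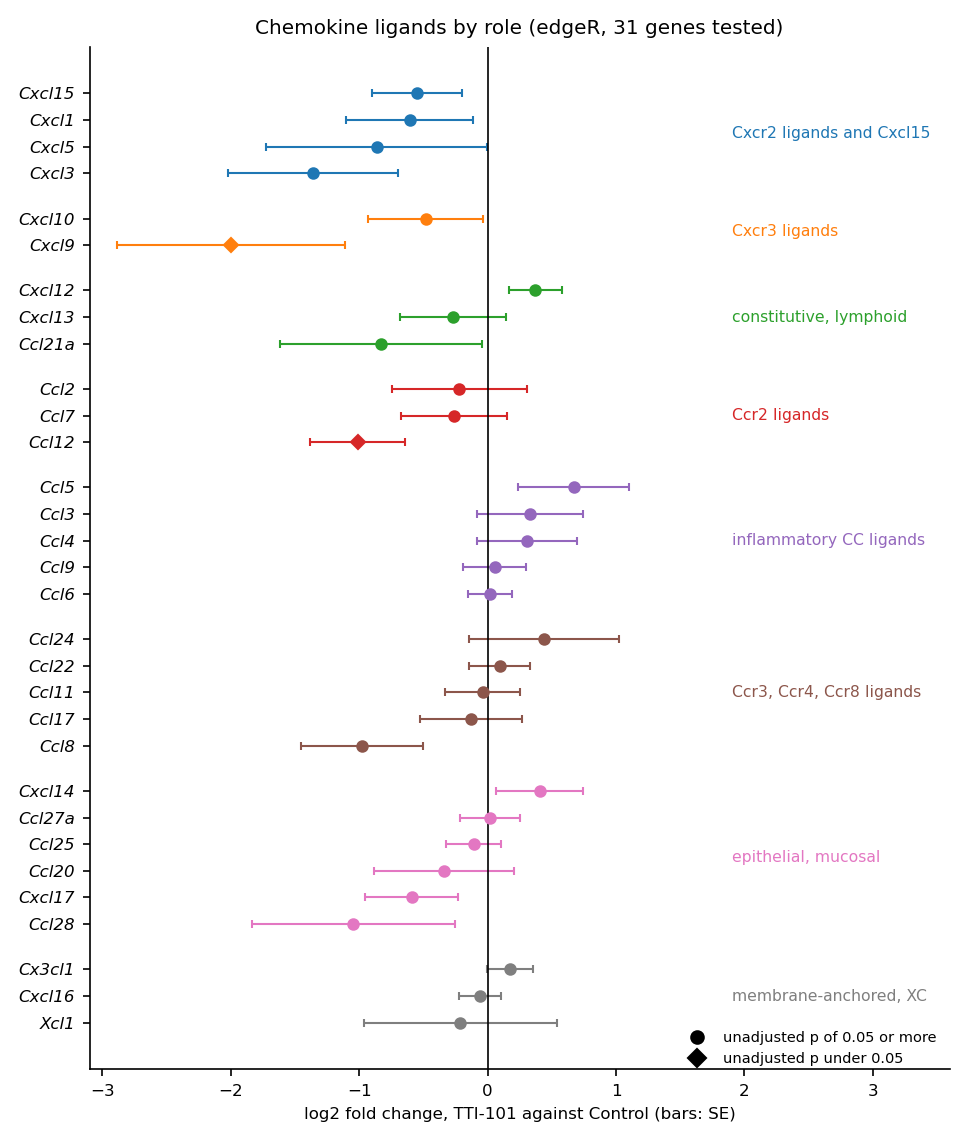
Log2 fold changes of the 31 ligands tested, TTI-101 against Control (horizontal axis, edgeR; bars are standard errors), grouped and colored by the role of the ligand. Ccl12 and Cxcl9, the diamonds, are the 2 ligands with an unadjusted p under 0.05; the 5 inflammatory CC ligands Ccl3, Ccl4, Ccl5, Ccl6 and Ccl9 lie to the right of 0 and the 4 tested Cxcr2 ligands and relatives to the left.

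To set the ligands on a common scale, CPM was divided by gene length in kilobases (RPKM). The order was led by Cxcl15, also called lungkine, an epithelial chemokine of the lung, with a mean of 1581 RPKM over the 8 mice and a range of 1002 to 3291 RPKM. It took 67.6% to 90.7% of all counts of the reported ligands in each library. Cxcl17, a mucosal chemokine, followed at 117.8 RPKM (57.0 to 183.6), then Ccl6, a ligand made by macrophages, at 101.3 RPKM (81.66 to 130.1), and Cxcl14, a ligand of epithelium and stroma, at 72.95 RPKM (41.48 to 150.1). Ccl21a, the Ccr7 ligand of lymphatic vessels and lymphoid tissue, came next at 32.47 RPKM, but its range of 7.593 to 94.42 RPKM overlapped that of all ligands from Cxcl17 down to Ccl8 in the order. The reported Ccl21a row has a gene length of 402 bases, while a chromosome 4 row of the same name has 870. The place of Ccl21a in the order thus depends on the length used. The ranges of Cxcl17, Ccl6 and Cxcl14 overlapped each other, and that of Cxcl15 overlapped none.

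In all, 10 ligands had a mean of 10 RPKM or more, 14 lay between 1 and 10 RPKM and 8 lay under 1 RPKM. The inflammatory ligands Cxcl1, Ccl2, Cxcl9, Cxcl10, Cxcl3 and Cxcl2 all had means between 0.317 and 1.06 RPKM. The ratio of the highest to the lowest mouse was 1.46 for Cxcl16 and 43.28 for Cxcl9, with a median of 3.64 over the 31 ligands that had counts in every mouse. It was under 2 for 6 ligands and over 10 for 6.

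**Figure D2:**
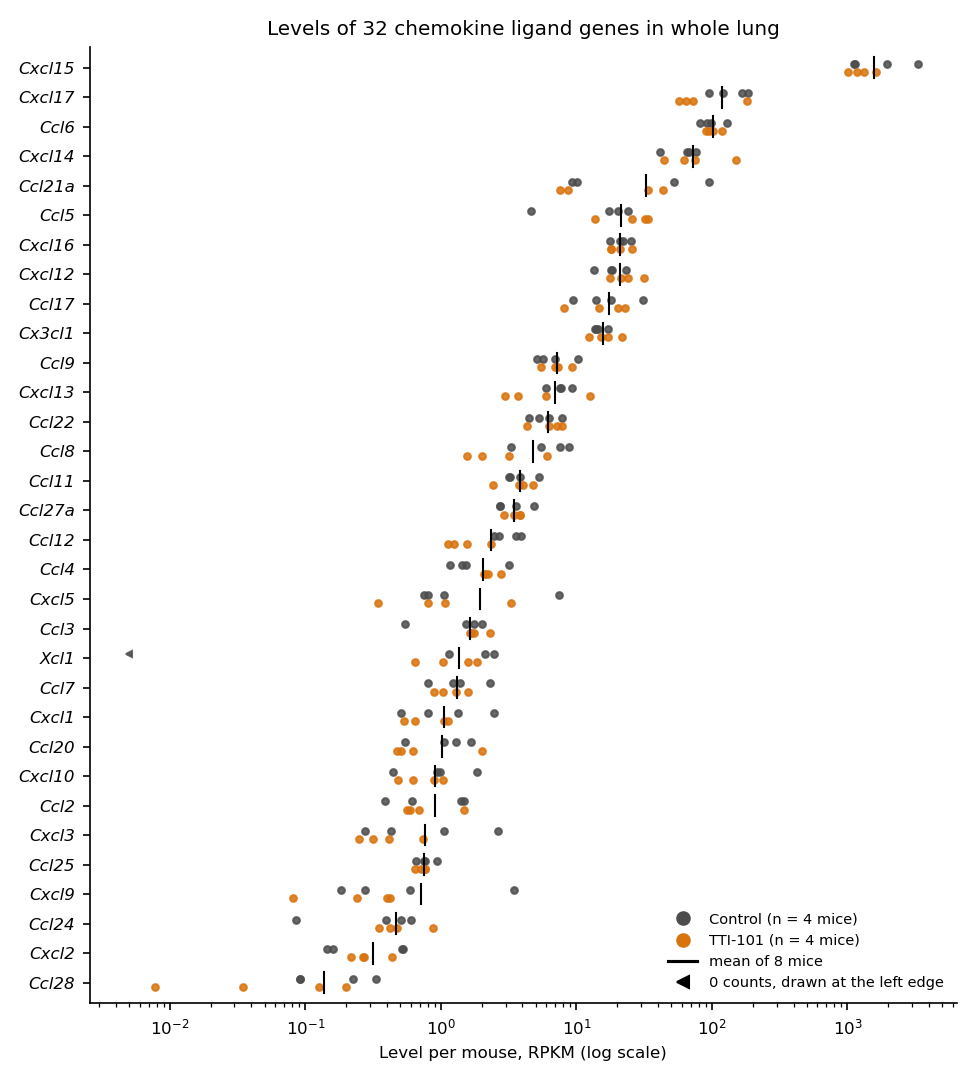
Level of each of the 32 reported ligands in each mouse (horizontal axis, RPKM on a log scale; gray, Control; orange, TTI-101; vertical bars, means of 8 mice), ordered by mean. Cxcl15 stands above all others at 1002 to 3291 RPKM, and the single value of 0, Xcl1 in control mouse 4, is drawn at the left edge.

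Ligands that draw neutrophils through Cxcr2 (Cxcl1, Cxcl2, Cxcl3 and Cxcl5) and Cxcl15 lie together on chromosome 5 of the mm10 build, between bases 90759360 and 90905938. The 4 that were tested had negative log2 fold changes, from -1.36 to -0.55, and none had an unadjusted p under 0.05. To show what letters these neighbors share close to their starts, the stretch from 110 to 31 bases before the transcription start is shown for Cxcl1 (chr5:90891135-90891214), Cxcl2 (chr5:90903789-90903868), Cxcl3 (chr5:90785991-90786070) and Cxcl15 (chr5:90794424-90794503), all on the plus strand, as RefSeq gives them on GRCm38.p6, with matches to the κB letters (GGG, any 3 bases, TTCC) on either strand in capitals.
Cxcl1: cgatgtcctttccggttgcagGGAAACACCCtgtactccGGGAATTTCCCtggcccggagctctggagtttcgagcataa
Cxcl2: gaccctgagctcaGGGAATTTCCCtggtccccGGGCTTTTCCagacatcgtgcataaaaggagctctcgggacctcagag
Cxcl3: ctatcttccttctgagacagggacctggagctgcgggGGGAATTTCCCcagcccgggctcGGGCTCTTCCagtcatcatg
Cxcl15: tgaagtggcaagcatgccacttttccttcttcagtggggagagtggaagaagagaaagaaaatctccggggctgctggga
The run of letters around GGGAATTTCCC matched on both strands and stood in each of Cxcl1, Cxcl2 and Cxcl3, beginning 71, 97 and 73 bases before the start, and each of the 3 held a further match nearby. The window of Cxcl15 held no match.

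Among the 23 reported ligands whose symbol had a RefSeq window of 250 bases before to 50 after the start, κB letters were found for 6 (Ccl9, Ccl20, Cxcl1, Cxcl2, Cxcl3 and Cxcl10), beside 5.56% of the 32851 windows of all genes. The STAT-type letters (TTC, any 3 bases, GAA) were found for 2, Ccl17 and Cxcl14, beside 8.3% of all windows, and the interferon-type letters (GAAA, any 2 bases, GAAA) for 2, Cxcl10 and Cxcl14, beside 3.44%. Both strands were searched, and no match of one motif overlapped a match of another. A match describes letters in the window, not a bound site.

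Cxcl15 stood at 4184, 2365, 2423 and 7000 CPM in control mice 1 to 4 and at 2839, 3454, 2132 and 2498 CPM in TTI-101 mice 1 to 4. Control mouse 4 was the highest and control mouse 1 the next, while the other 2 controls lay among the treated mice. The log2 fold change was -0.55 (SE 0.35, adjusted p = 0.667), and it was -0.12 without control mouse 4. Beside this, the summed level of 6 alveolar type 2 cell markers, none at 0, ranged from 39520 to 69130 CPM in Control and from 29370 to 56280 CPM in TTI-101 lungs, with control mouse 4 the highest, and 6 of 6 had a negative log2 fold change, 0 with an unadjusted p under 0.05. Their part in the Cxcl15 values was not tested. In bulk lung, fewer cells of a type and less RNA per cell cannot be told apart.

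Cxcl1, the mouse counterpart of the GRO chemokines, was read at 126, 16, 27 and 39 counts in the controls and 56, 33, 18 and 20 in the treated mice, or 4.62, 0.956, 1.5 and 2.49 CPM against 2.11, 1.98, 1.00 and 1.22 CPM. Control mouse 1 was the highest and control mouse 2 the lowest of all 8, so the treated values lay inside the control range. The log2 fold change was -0.61 (SE 0.49, adjusted p = 0.718), and -0.05 without control mouse 1.

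Cxcl2, also called MIP-2, was the scarcest ligand of this group and did not pass the expression filter, with 29, 5, 6 and 17 counts in Control and 12, 15, 10 and 9 counts in TTI-101 lungs. Mean levels were 0.696 ± 0.439 CPM (SD, n = 4) and 0.614 ± 0.197 CPM (SD, n = 4). A two-sided exact permutation test over the 70 assignments of 8 mice gave p = 1, and at this depth no difference was detectable.

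Cxcl5 and Cxcl3 shared their highest mouse with Cxcl15. Cxcl5, a ligand made by lung epithelium, was at 13.8 CPM in control mouse 4 and 6.13 CPM in TTI-101 mouse 2, and at no more than 2.01 CPM in the other 6. Its log2 fold change was -0.86 (SE 0.86) and 0.65 without control mouse 4, so the sign turned with 1 mouse. Cxcl3 was at 9.21 CPM in control mouse 4, 3.67 CPM in control mouse 1 and 0.867 to 2.58 CPM elsewhere, and its log2 fold change of -1.36 (SE 0.66) became -0.47 without control mouse 4. Summed neutrophil markers were lowest in this same mouse, at 191.5 CPM against 333.3 to 589 CPM in the other 7.

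The interferon-inducible ligands Cxcl9 and Cxcl10, which call activated T and NK cells through Cxcr3, lie side by side on chromosome 5. Cxcl9 was at 10.5, 0.837, 0.555 and 1.79 CPM in control mice 1 to 4 and at 1.21, 1.26, 0.723 and 0.243 CPM in TTI-101 mice 1 to 4, from 287, 14, 10, 28, 32, 21, 13 and 4 counts. A single control mouse was thus far above the rest, and the other 3 controls overlapped the treated mice. The log2 fold change was -2.0 (SE 0.89) with an unadjusted p of 0.047 and an adjusted p of 0.657 in edgeR; it was -0.28 with an unadjusted p of 0.659 without control mouse 1, and the unadjusted p was 0.054 to 0.109 when any one TTI-101 mouse was left out. An exact permutation test of the groups, two-sided, gave p = 0.343.

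Cxcl10, also called IP-10, had the same highest mouse, with 4.15, 2.21, 0.999 and 2.11 CPM in Control and 1.39, 2.34, 2.00 and 1.10 CPM in TTI-101 lungs. The groups overlapped, and the log2 fold change of -0.48 (SE 0.44) became -0.05 without control mouse 1. Its promoter is shown because it held both κB and interferon-type letters (chr5:92348980-92349109, minus strand, 220 to 91 bases before the start, matches in capitals).
Cxcl10: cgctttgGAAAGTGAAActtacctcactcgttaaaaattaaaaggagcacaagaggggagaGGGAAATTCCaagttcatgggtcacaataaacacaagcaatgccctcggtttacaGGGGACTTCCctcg
The interferon-type match came 213 bases and the κB matches 159 and 104 bases before the start. The window of Cxcl9 held none of the 3 motifs.

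Ccl2, Ccl7 and Ccl12, the ligands that draw Ccr2-bearing monocytes, form a cluster on chromosome 11 together with Ccl8 and Ccl11. All 3 had negative log2 fold changes. Ccl12 (chr11, 82101845 to 82103400) was the only reported ligand whose groups did not overlap, with 1.43, 1.91, 1.33 and 2.11 CPM in control mice and 0.603, 1.26, 0.834 and 0.669 CPM in TTI-101 mice; non-overlapping groups were found for 2.96% of all genes tested, or 508. These levels came from 24 to 39 counts in Control and 11 to 21 counts in TTI-101 libraries. The mean was 1.70 ± 0.375 CPM (SD, n = 4) against 0.842 ± 0.296 CPM (SD, n = 4), and the log2 fold change was -1.01 (SE 0.37) with an unadjusted p of 0.0202 and an adjusted p of 0.657 in edgeR. The two-sided exact permutation test gave p = 0.0286, the smallest that 4 mice against 4 can give, and no other of the 32 ligands examined reached it. With 1 mouse left out the log2 fold change stayed between -1.26 and -0.87, and the unadjusted p was 0.052 without control mouse 2, 0.062 without TTI-101 mouse 1 and 0.054 without TTI-101 mouse 4.

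Ccl2, also called MCP-1, gave 8 to 28 counts per library and stood at 0.697, 1.67, 0.444 and 1.60 CPM in Control and at 0.641, 1.68, 0.778 and 0.669 CPM in TTI-101 lungs. Control mice 2 and 4 and TTI-101 mouse 2 were high and the other 5 low, so each group held both kinds. The log2 fold change was -0.22 (SE 0.53, adjusted p = 0.914) and turned positive without control mouse 2 (0.06) or control mouse 4 (0.02). Ccl7, or MCP-3, ranged from 0.640 to 1.85 CPM in Control and 0.716 to 1.26 CPM in TTI-101 lungs, with a log2 fold change of -0.26 (SE 0.41) that was 0.06 without control mouse 2. Their receptor gene Ccr2 was at 61.2 ± 19.3 CPM in Control and 49.7 ± 9.59 CPM in TTI-101 lungs (SD, n = 4 each), with a log2 fold change of -0.30 (SE 0.24, adjusted p = 0.712).

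The level of Ccl2 was set against a score of 5 monocyte markers (the mean of their log2 CPM), as 1 of 5 ligand and cell-marker pairs examined. Over the 8 mice, Pearson's r was -0.836 (exact permutation p = 0.0102, 0.0511 after Benjamini-Hochberg adjustment over the 5 pairs) and Spearman's rho was -0.762 (exact permutation p = 0.0368). Without control mouse 4 and TTI-101 mouse 2, the 2 mice farthest from the median score, r was -0.671 over 6 mice. The mice with the highest Ccl2 thus had lower monocyte marker scores. Within groups, the sign of r was the same in both for Ccl2 (negative) and Ccl21a (positive). In the remaining 3 pairs it was positive in Control and negative in TTI-101 lungs. Groups of 4 mice are too small for a correlation to be read, so nothing is drawn from these signs. For the other 4 pairs the adjusted exact permutation p was between 0.356 and 0.997: r was -0.496 for Cxcl13 with B cell markers, 0.0555 for Cxcl9 with T cell markers, -0.00242 for Cxcl1 with neutrophil markers and 0.519 for Ccl21a with lymphatic endothelium markers.

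**Figure D3:**
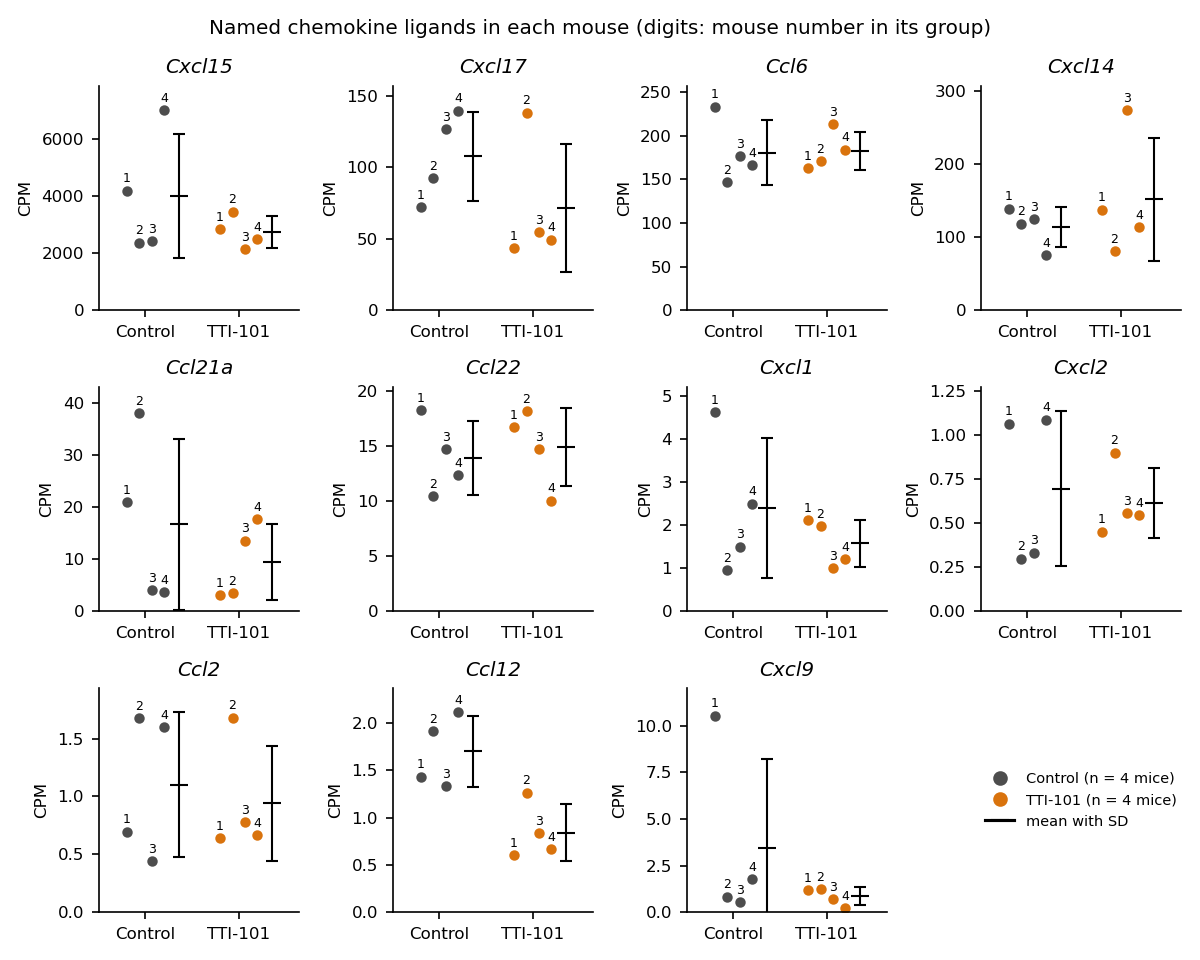
CPM of 11 ligands in each mouse (vertical axes, linear from 0; digits give the mouse number within its group; bars, mean with SD, n = 4). Ccl12 is the one panel in which all 4 TTI-101 mice lie below all 4 controls; in the Cxcl9 panel control mouse 1 stands alone at 10.5 CPM and the lower SD bar is cut at 0.

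The 5 inflammatory CC ligands Ccl3, Ccl4, Ccl5, Ccl6 and Ccl9, which attract monocytes, macrophages and T cells, all had positive log2 fold changes, with a median of 0.31, and none had an unadjusted p under 0.05. Ccl6 was the most abundant, at 233.5, 146.6, 176.8 and 166.1 CPM in Control and 163.0, 171.3, 213.1 and 184.2 CPM in TTI-101 lungs. It was among the steadiest ligands, with a ratio of 1.593 between the highest and lowest mouse, and the treated mice lay inside the control range (log2 fold change 0.02, SE 0.17, adjusted p = 0.982).

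Ccl5, or RANTES, a ligand made by T and NK cells, had the largest positive fold change of all reported ligands, 0.67 on the log2 scale (SE 0.43, adjusted p = 0.67). It was at 23.0, 16.7, 19.5 and 4.41 CPM in the controls and 30.8, 13.3, 32.5 and 24.8 CPM in the treated mice, so that 3 of 4 treated mice were above all controls. Control mouse 4 was the lowest, and without it the log2 fold change was 0.37. That mouse also had the lowest summed T cell markers, 37.48 CPM, where Control lungs ranged up to 128.1 CPM and TTI-101 lungs from 72.54 to 148.4 CPM; 10 of 10 T cell markers had a positive log2 fold change, 1 with an unadjusted p under 0.05, and none was at 0. Their part in the Ccl5 values was not tested. Ccl3 and Ccl4 (MIP-1α and MIP-1β) were at 0.418 to 2.09 CPM with log2 fold changes of 0.33 (SE 0.41) and 0.31 (SE 0.39), and Ccl9 at 15.5 to 31.2 CPM with 0.06 (SE 0.25). Without control mouse 4, 2 of the 5 had a negative fold change. Ccr1, the receptor of Ccl6 and Ccl9, had a log2 fold change of 0.27 (SE 0.25).

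Among the ligands of Ccr3, Ccr4 and Ccr8, which serve eosinophils, type 2 helper cells and regulatory T cells, 2 had positive and 3 negative log2 fold changes. Ccl22, also called MDC and made by dendritic cells and macrophages, was at 18.2, 10.5, 14.7 and 12.3 CPM in Control and 16.7, 18.1, 14.7 and 10.0 CPM in TTI-101 lungs. The ranges nearly coincided, and the log2 fold change was 0.09 (SE 0.24, adjusted p = 0.919). Ccl17, or TARC, which shares the receptor Ccr4 with Ccl22 and lies beside it on chromosome 8, was at 4.20 to 16.0 CPM, highest in control mouse 4, with a log2 fold change of -0.13 (SE 0.40) that turned positive without control mouse 4 (0.27) or TTI-101 mouse 4 (0.10). Ccr4 itself had a log2 fold change of -0.25 (SE 0.44).

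Ccl8, or MCP-2, a Ccr8 ligand in the mouse, was at 3.85, 1.67, 4.49 and 2.81 CPM in controls and 0.791, 1.62, 3.11 and 1.03 CPM in treated mice. Here 3 of 4 treated mice lay below all controls, by a margin of 1.62 against 1.67 CPM for the closest pair. Its log2 fold change was -0.98 (SE 0.47), with an unadjusted p of 0.065 in edgeR and an adjusted p of 0.657. The eotaxins Ccl11 and Ccl24 had log2 fold changes of -0.04 (SE 0.29) and 0.44 (SE 0.58), the latter from 3 to 19 counts per library.

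The ligands that organize lymphoid tissue were led in level by Ccl21a and Cxcl12. Cxcl12, the stromal ligand of Cxcr4, was at 188.3, 150.8, 147.1 and 110.1 CPM in Control and 173.6, 145.9, 197.1 and 255.9 CPM in TTI-101 lungs, with 2 treated mice above all controls and a log2 fold change of 0.37 (SE 0.21, adjusted p = 0.657). Control mouse 4 was again the lowest (log2 fold change 0.27 without it), as it was for summed fibroblast markers (779.2 CPM, against 1063 to 1987 CPM elsewhere). The Cxcl12 receptor gene Cxcr4 had a log2 fold change of 0.52 (SE 0.25, adjusted p = 0.657), and Ackr3, which takes up Cxcl12 without signaling through G proteins, was at 35.2, 38.7, 32.6 and 27.5 CPM in controls and 48.5, 39.6, 52.9 and 38.7 CPM in treated mice. The Ackr3 groups did not overlap, as was found for 2.96% of all genes tested. The highest control and the lowest treated mouse nonetheless both stood at 38.7 CPM. The log2 fold change of Ackr3 was 0.42 (SE 0.16, unadjusted p = 0.0247, adjusted p = 0.657 in edgeR).

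Cxcl13, the B cell attractant that binds Cxcr5, was at 10.7, 6.82, 8.82 and 8.64 CPM in Control and 4.30, 14.6, 6.84 and 3.41 CPM in TTI-101 lungs. TTI-101 mouse 2 was the highest of all and 2 treated mice were the lowest, and the log2 fold change was -0.27 (SE 0.41, adjusted p = 0.849). Without TTI-101 mouse 2 it was -0.85 with an unadjusted p of 0.0155 and an adjusted p of 0.284 in edgeR. Its receptor gene Cxcr5, a marker of B cells and follicular helper T cells, had the opposite sign, with 11.9, 5.98, 5.71 and 3.26 CPM in controls and 19.8, 9.73, 26.4 and 22.8 CPM in treated mice. Of the treated mice 3 were above all controls, and the log2 fold change was 1.54 (SE 0.40) with an unadjusted p of 0.00308 and an adjusted p of 0.657 in edgeR. All 10 B cell markers had positive log2 fold changes with an unadjusted p under 0.05, with a median of 1.20 and none at 0, and their summed level ranged from 125.9 to 358.1 CPM in Control and from 304.4 to 631 CPM in TTI-101 lungs.

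Ccl21a could not be measured cleanly. The reported row is a copy on scaffold JH584294.1 (bases 121048 to 121713, gene length 402 bases), with 572, 635, 73 and 58 counts in Control and 81, 58, 244 and 290 counts in TTI-101 libraries. Control mice 1 and 2 were high and control mice 3 and 4 low, and among the treated mice 3 and 4 were high and 1 and 2 low, so the groups overlapped (log2 fold change -0.83, SE 0.79, adjusted p = 0.753). The log2 fold change was -0.03 without control mouse 2 and -1.32 without TTI-101 mouse 4. In library names, not explained by the labels, A1, A2, D1 and D2 were high and B1, B2, C1 and C2 low. What this split came from was not tested. A gene on chromosome 4, Gm10591, held 235, 59, 137 and 1 counts in controls and 51, 207, 81 and 133 counts in treated mice. The chromosome 4 copy named Ccl21b, whose 402 coding bases differed from Gm10591 at 0 positions in GENCODE M21, held none. The sequence of the scaffold row itself was not compared with that of Gm10591. In the summed counts of the 7 rows named Ccl21a, Ccl21b, Ccl21c or Gm10591, the scaffold copy took 21.1% to 90.2% per mouse. Reads may have been divided unevenly among copies, which was not tested. With the counts summed, the log2 fold change was -0.40 (SE 0.63, adjusted p = 0.855) and the two-sided exact permutation test gave p = 0.914.

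Ccr7, the receptor of Ccl21a and Ccl19 that is carried by naive lymphocytes and mature dendritic cells, was at 27.7, 13.3, 16.5 and 11.0 CPM in Control and 46.0, 16.4, 52.1 and 44.0 CPM in TTI-101 lungs. As with Cxcr5, TTI-101 mouse 2 was the one treated mouse inside the control range (log2 fold change 1.21, SE 0.37, unadjusted p = 0.00839, adjusted p = 0.657).

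Among the epithelial and mucosal ligands, Cxcl17 was at 72.2, 92.5, 126.7 and 139.7 CPM in Control and 43.4, 138.4, 54.8 and 49.4 CPM in TTI-101 lungs. Of the treated mice 3 were below all controls, and TTI-101 mouse 2 was just under the highest control. The log2 fold change was -0.59 (SE 0.37, adjusted p = 0.661). Without TTI-101 mouse 2 it was -1.12, with an unadjusted p of 0.000748 and an adjusted p of 0.28 in edgeR. In that fit 2498 of 17533 genes had an unadjusted p under 0.05. The 5 club cell markers had summed levels of 14990 to 37330 CPM in Control and 12610 to 24660 CPM in TTI-101 lungs, the highest treated value again in mouse 2; 4 of the 5 had a negative log2 fold change, 2 of them with an unadjusted p under 0.05, and none was at 0. Their part in the Cxcl17 values was not tested.

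Cxcl14 was at 139.3, 118.7, 124.5 and 75.8 CPM in Control and 138.1, 81.5, 274.2 and 114.0 CPM in TTI-101 lungs. TTI-101 mouse 3 was alone above all controls, and the log2 fold change of 0.41 (SE 0.34, adjusted p = 0.724) was -0.04 without it. Summed mesothelium markers were also highest in that mouse, at 281.7 CPM against 20.4 to 213 CPM elsewhere. So were summed B cell, T cell, monocyte, fibroblast, endothelium and platelet markers, while the other marker lists were highest in other mice. Their part in the Cxcl14 values was not tested. The remaining 4 ligands of the group were lower in level: Ccl20, the Ccr6 ligand, had a log2 fold change of -0.34 (SE 0.55), Ccl25, the Ccr9 ligand, -0.11 (SE 0.21), Ccl28 -1.04 (SE 0.79) from 1 to 27 counts per library, and Ccl27a 0.02 (SE 0.24). Ccl27a has near-copies on chromosome 4 and on scaffolds, so its counts may be incomplete.

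The transmembrane chemokines Cx3cl1, or fractalkine, and Cxcl16 were among the steadiest ligands. Cx3cl1 ranged from 53.6 to 66.8 CPM in Control and 48.9 to 85.4 CPM in TTI-101 lungs (log2 fold change 0.17, SE 0.18), and Cxcl16 from 53.2 to 75.9 CPM and 54.3 to 77.6 CPM (log2 fold change -0.06, SE 0.16). Their receptor genes Cx3cr1 and Cxcr6 had log2 fold changes of -0.08 (SE 0.20) and -0.12 (SE 0.24). Xcl1, a ligand made by NK and CD8 T cells, was read at 35, 10, 20 and 0 counts in Control and 9, 9, 15 and 16 counts in TTI-101 libraries (log2 fold change -0.21, SE 0.75). The value was 0.20 without control mouse 1, -0.59 without control mouse 4, the mouse with no count, and 0.43 in limma-voom, so its sign was not stable. Xcr1, its receptor and a marker of type 1 dendritic cells, was at 5.80, 7.89, 3.99 and 6.14 CPM in controls and 2.71, 4.44, 3.39 and 3.10 CPM in treated mice, with 3 of 4 treated mice below all controls and a log2 fold change of -0.80 (SE 0.28, unadjusted p = 0.0156, adjusted p = 0.657).

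The levels of single ligands did not follow one order of mice. Control mouse 1 was the highest of the 8 for 7 ligands (Ccl4, Ccl6, Ccl22, Cxcl1, Cxcl9, Cxcl10 and Xcl1), and control mouse 4 for 7 others (Ccl12, Ccl17, Cxcl2, Cxcl3, Cxcl5, Cxcl15 and Cxcl17). Control mouse 4 was also the lowest for 8, among them Ccl5, Cxcl12, Cxcl14 and Xcl1. In that mouse the summed markers were the lowest of all 8 for B cells, T cells, NK cells, neutrophils, alveolar macrophages, classical dendritic cells, mesothelium, fibroblasts, endothelium and lymphatic endothelium. They were the highest for alveolar type 2 cells, club cells and mature dendritic cells. Red cell markers, a measure of blood left in the tissue, had summed levels of 57.98 to 263.8 CPM in Control and 205.3 to 1586 CPM in TTI-101 lungs, with a median log2 fold change of 2.50 and 4 of 5 under an unadjusted p of 0.05. TTI-101 mouse 1, the highest for red cell markers, was the lowest for 7 ligands, and TTI-101 mouse 2 the highest for 5 (Ccl2, Ccl20, Ccl24, Cxcl13 and Cxcl16). The part of these cell contents in the ligand values was not tested. Without control mouse 4, 20 of 32 ligands had a negative log2 fold change, and Ccl12 and Cxcl9 were again the 2 with an unadjusted p under 0.05. In that fit 531 of 17548 genes were under this level.

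**Figure D4:**
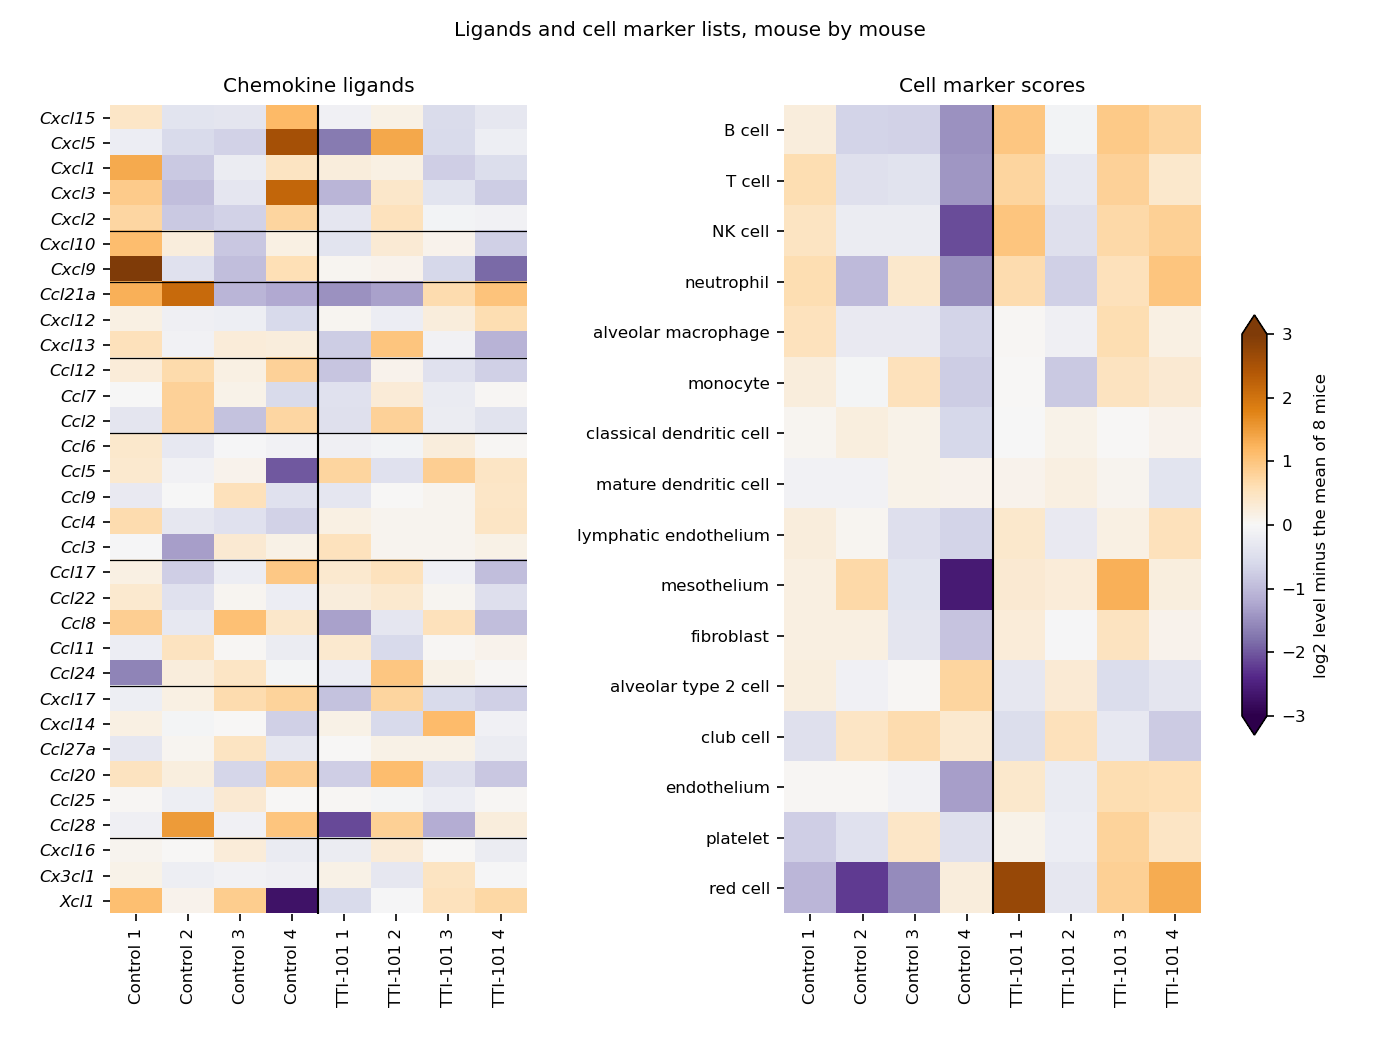
Log2 level of each reported ligand (left, log2 of CPM plus 0.1, ordered by role with lines between roles) and of each cell marker score (right, mean log2 CPM of the list) in each mouse, minus the mean of the 8 mice; orange is above and purple below that mean. Control mouse 4 is high for Cxcl15, Cxcl5 and Cxcl3 and low for Ccl5 and Xcl1, and has the lowest T cell, NK cell and mesothelium scores.

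Of the 19 receptor genes listed for these ligands, 17 were tested; 10 had positive and 7 negative log2 fold changes, with a median of 0.40. In edgeR an unadjusted p under 0.05 was found for 4 of the 17, beside 6.61% of all genes tested, and 0 passed an adjusted p of 0.05. Of the 4, 2 were higher, Ccr7 and Cxcr5, and 2 were lower, Xcr1 among them. For the receptors of the neutrophil and Cxcr3 ligands, Cxcr2 had a log2 fold change of 0.72 (SE 0.79) and Cxcr3 of 0.47 (SE 0.39), while Cxcl1, Cxcl3, Cxcl5, Cxcl9 and Cxcl10 had negative values and the Cxcr2 ligand Ppbp, outside the naming rule, a positive one. All 5 atypical receptors had positive log2 fold changes, from 0.42 to 0.81, of which Ackr3 alone had an unadjusted p under 0.05. Among 12 tested genes of the interferon gamma response, the pathway that Cxcl9 is named for (monokine induced by gamma interferon), 12 had positive log2 fold changes from 0.11 to 0.90, 0 of them with an unadjusted p under 0.05. NF-κB targets other than chemokines had 10 positive and 3 negative values of 13, with a median of 0.16 and 0 under that level. Of 6 lymphotoxin and lymphoid organizer genes, 1 had an unadjusted p under 0.05, Ltb, a subunit of membrane lymphotoxin, at 23.0 ± 4.35 CPM in Control and 40.1 ± 10.9 CPM in TTI-101 lungs (SD, n = 4 each). Median log2 fold changes of the remaining marker lists were 0.74 for NK cells, 0.84 for neutrophils, 0.26 for alveolar macrophages, -0.11 for monocytes, 0.08 for classical and -0.01 for mature dendritic cells, 0.35 for lymphatic endothelium, 0.60 for endothelium, 0.69 for mesothelium, 0.29 for fibroblasts and 0.54 for platelets, and no gene of any list passed an adjusted p of 0.05.

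**Figure D5:**
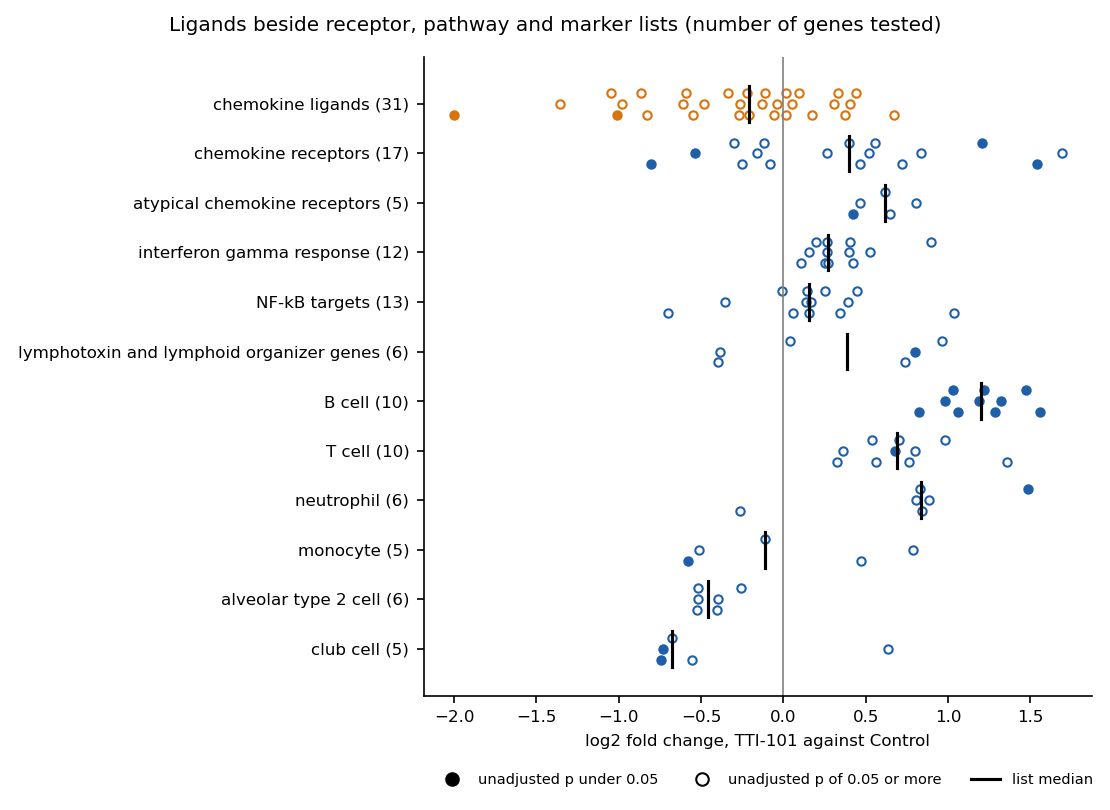
Log2 fold changes (horizontal axis, TTI-101 against Control, edgeR) of the ligands, orange, and of receptor, pathway and cell marker lists, blue; each circle is a gene, filled where the unadjusted p was under 0.05, and bars are list medians. The ligand median lies at -0.21, the receptor median at 0.40 and the B cell marker median at 1.20.

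The 12 unreported rows were below 10 counts in more than 4 libraries. Just inside the limit, Xcl1, Ccl28, Ccl24 and Cxcl2 reached 10 counts in 5 libraries. Just outside it, a scaffold copy of Ccl21c, the chromosome 4 copy of Ccl21a, and Ccl19 each reached it in 1. Ccl19, the other Ccr7 ligand, had 0 counts in each control library, which allows up to 3, and 15, 0, 2 and 1 counts in TTI-101 mice 1 to 4, too few to compare. The other 9 rows were Ccl1, Ccl26, Ccl27b and further copies named Ccl19, Ccl21b, Ccl21c and Ccl27a, and 5 of the 12 rows had no count at all. Pf4 and Ppbp are platelet-derived CXC ligands with other names and so were not members; beside 4 platelet markers, of which Gp1bb was at 0, Pf4 was at 18.9 ± 6.79 CPM in Control and 10.5 ± 2.17 CPM in TTI-101 lungs (SD, n = 4 each; log2 fold change -0.85, SE 0.28, adjusted p = 0.657) and Ppbp at 10.3 ± 2.99 and 14.1 ± 5.58 CPM (0.45, SE 0.33).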

How the data were processed

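Poly(A) RNA of whole lung was sequenced as paired-end reads from TruSeq Stranded mRNA libraries of 8 mice. Per the labels, the authors' processing used STAR, DESeq2 and the mm10 build (versions not given in the sources used here); the deposited values are whole-number counts per gene, not normalized, with a gene length for each, and the counting tool and its strand setting are not given in the sources used here. A 10-week-old start and 14-week-old harvest come from the study's methods. Those methods also state that lungs frozen for RNA came from mice first lavaged and then perfused with PBS. Cells of the airspaces and blood were thus in part removed before RNA was taken.

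Counts of all genes were fitted in R 4.3.3 with edgeR 4.0.16 (TMM scaling, filterByExpr, robust quasi-likelihood F-test, no covariate), with Benjamini-Hochberg adjustment over the 17138 genes tested; the standard error is the log2 fold change over the root of F. CPM used the TMM library sizes; RPKM divided CPM by gene length. Single ligands were also compared by two-sided exact permutation on log2 CPM (prior count 2). The fit was run on simulated counts with less spread between mice than these data and only large planted changes. That run cannot show how the fit performs on changes of the size seen for most ligands. DESeq2 1.42.0, limma-voom (limma 3.58.1), other scalings and filters, a replicate block and leaving out each mouse were alternatives. The labels number the lungs within each group. They also name the libraries, in order, A1, A2, B1 and B2 for Control and C1, C2, D1 and D2 for TTI-101. What the shared letters stand for and how replicates were made is not said. Libraries were treated as separate replicates, and likeness within a letter was not tested. The p-values thus measure the spread between these 8 libraries, which may in part be technical.

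Full values were given for Cxcl1, Ccl2, Cxcl9, Cxcl2 and Ccl22. From a panel of immune proteins in lavage fluid, the study reported these chemokines as higher with TTI-101. Full values were also given for ligands under an unadjusted p of 0.05 and for the 5 highest per length. Other ligands were given by range or fold change. The receptors of the ligands given in full, and receptors under an unadjusted p of 0.05, were named, some by fold change alone. Ccl5, Ccl8, Cxcl3, Cxcl5, Cxcl10, Cxcl12 and Cxcl13 were shown in more detail after their values were seen. The members and the receptor, pathway and marker lists were chosen with earlier results of these data known. One receptor gene is not reported here. Promoter windows were RefSeq's; 9 ligands had none there.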

Additional observations from a re-analysis of the deposited data

Results flagged for a closer look

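Among the 32 reported ligands, each examined for 1 mouse far from the others of its group on the scale of log2(CPM + 0.1), a single group stood out. Cxcl5 in control mouse 4 was at 13.82 CPM, where the next control was at 1.981 CPM, and the gap took 0.85 of the range of the group, above Dixon's 95% critical value for 4 samples. In all 64 groups were examined, of which chance alone would single out about 3.2. The same mouse was the highest for Cxcl3 and Cxcl15 and had the highest summed alveolar type 2 cell markers; the part of that cell content in the Cxcl5 value was not tested.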

How the results depend on the processing

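The count of ligands under an unadjusted p of 0.05 was 2 in the fit reported; DESeq2's Wald test gave 4, a filter of 10 counts in every library gave 1 of 25 tested, and leaving out 1 mouse gave between 0 (without TTI-101 mouse 1 or TTI-101 mouse 4) and 6 (without TTI-101 mouse 2: Ccl12, Ccl20, Cxcl3, Cxcl12, Cxcl13 and Cxcl17). The count of all genes under that level moved as well. It was 1132 of 17138 in the fit reported, 1689 of 31830 in DESeq2's Wald test and 1065 of 15272 with the filter in every library. It was 711 of 17415 without TTI-101 mouse 1, 758 of 17483 without TTI-101 mouse 4 and 2498 of 17533 without TTI-101 mouse 2. No ligand passed an adjusted p of 0.05 under any of these settings. The labels do not say whether same-numbered mice of the groups were paired. The deviations of same-numbered mice from their group means correlated at 0.393, 0.082, 0.158 and 0.071. Differently numbered mice were not compared in this way, so these values cannot show whether mice were paired. With the replicate number as a block, 3 ligands (Ccl8, Ccl12 and Ccl28) and 1298 genes were under an unadjusted p of 0.05, and the median ligand log2 fold change was -0.099.

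Leaving out 1 mouse turned the sign of the log2 fold change for 12 of the 31 ligands tested. It ran from -0.066 to 0.166 for Ccl6, -0.636 to 0.055 for Ccl2, -0.018 to 0.253 for Ccl22, -0.042 to 0.62 for Cxcl14, -1.753 to 0.646 for Cxcl5, -0.341 to 0.266 for Ccl17, -0.591 to 0.196 for Xcl1, -0.44 to 0.064 for Ccl7, -0.178 to 0.153 for Ccl11, -0.087 to 0.298 for Ccl9, -0.082 to 0.219 for Ccl27a and -0.169 to 0.024 for Cxcl16. For Ccl21a it ran from -1.321 to -0.027. The median over the ligands ran from -0.36 to -0.104. The difference in mean log2 CPM of Cxcl2 was -0.007, 0.016 with a prior count of 0.5, 0.028 with library totals, and -0.271 to 0.257 with 1 mouse left out. The correlation of Cxcl9 with T cell markers ran from -0.453 to 0.263 and that of Cxcl1 with neutrophil markers from -0.332 to 0.241. The cause was not tested. With Ccl21 copies summed, an alternative chosen after seeing the data, the fold change of -0.40 kept its sign.

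Low counts limit 7 of the 32 ligands, which had under 10 counts in at least 1 library: Ccl2, Ccl3, Ccl24, Ccl28, Cxcl2, Cxcl9 and Xcl1.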
